A study of Mus musculus with 36 samples.

Results

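piRNA clusters are stretches of the genome whose long transcripts are cut into piRNAs, and an intergenic cluster is here one whose name lacks the prefix pi- that the study puts before a gene name. The small RNA tables of the study list 215 clusters by name, of which 114 carry that prefix and a gene name and 101 start with a chromosome band. Of these 101, 100 end in a number and 1, 2-qE1-new-Gm13817, ends in the name of a gene model. The clusters described here are 91 of those 101. The other 10 intergenic clusters (17-qA3.3-27363, 9-qC-31469, 9-qC-10667, 6-qF3-28913, 6-qF3-8009, 7-qD2-24830, 18-qE1-36451, 9-qA5.3-24188, 4-qC5-17839 and 2-qE1-35981) were set aside by name. The rule uses names only, but over 90 of the 91 clusters the number ending the name rose with the wild-type small RNA signal (Spearman's rho 0.90). The 91 clusters lie on 51 bands of 18 chromosomes, and all of them were found under the same names in the RNA-seq tables and among the eCLIP features. Precursor RNA was read from testis RNA-seq of D1Pas1 knockout (KO) and wild-type control (WT) mice on postnatal day 14 (P14), day 18 (P18) and day 28 (P28), 3 libraries for each of these 6 groups. Small RNA was measured in 3 wild-type and 3 D1Pas1 knockout libraries from RNA oxidised to enrich piRNAs. RNA bound by the D1PAS1 protein was measured by eCLIP, in which protein is cross-linked to RNA by UV light and precipitated, in 3 precipitates and 3 size-matched inputs from knock-in (KI) testes. The labels name no strain, do not describe either allele, leave the age of the small RNA and of the eCLIP mice unstated, and they do not say whether samples of a group came from separate animals, so every p-value measures the spread between these libraries only.

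In mouse testis, long intergenic precursors are transcribed by RNA polymerase II in spermatocytes that have entered pachytene, the long stage of meiotic prophase. The transcription factor A-MYB, encoded by Mybl1, drives many of them, often in both directions from 1 shared promoter. The precursors are exported, cut at the mitochondrial surface, trimmed and methylated at their ends, and the resulting pachytene piRNAs are loaded into the PIWI proteins MIWI (Piwil1) and MILI (Piwil2). Oxidation spares small RNAs with a methylated end, which is why it enriches piRNAs. D1PAS1 belongs to the DEAD-box helicases and is made in male germ cells.

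Library totals ran from 16048760 to 40927153 estimated counts in RNA-seq, from 102426 to 145162 cross-link events in the precipitates and from 264157 to 3673467 events in the inputs, counted over windows that do not overlap. The depth behind the small RNA values is unknown. D1Pas1 RNA lay at 88.1 ± 35.5 CPM in wild type and 19.9 ± 4.18 in knockout at P18 (CPM, counts scaled by library size and TMM factor; mean ± SD, n = 3), a log2 fold change of -2.14 by edgeR (adjusted p = 9.74e-04). It lay at 255 ± 95.01 CPM in wild type and 38.01 ± 6.42 in knockout at P28 (-2.74, adjusted p = 1.81e-04) and at 37.8 ± 6.86 CPM in wild type and 15.6 ± 1.73 in knockout at P14 (-1.28, adjusted p = 0.0860), where the fall did not pass. The germ cell markers Ddx4, Dazl, Sycp3, Dmc1, Mael and Tex101 summed to between 2433 and 3580 CPM in every RNA-seq library, and Sertoli cell markers to between 1458 and 4227 CPM, although the labels give the cell type as germ cell. RNA-seq libraries are numbered as their table columns are. Some libraries stood apart. At P14 the summed level of the 91 clusters was 6498 CPM in wild-type library 2 against 3754 and 3668 in the other wild-type libraries. Wild-type small RNA library 3 had a summed signal over genic clusters of 39403, inside the knockout range of 37848 to 50294 and above the 25999.8 and 24618 of the other wild-type libraries. Counts that these libraries move by much are also given without them.

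The precursors rose steeply between P14 and P18 in wild type. Their summed level rose from 3754, 6498 and 3668 CPM at P14 to 18832, 17736 and 24966 CPM at P18, and was 19226, 20063 and 18449.7 CPM at P28, each scaled within its age. In 1 edgeR quasi-likelihood fit over the 18 libraries, 85 of the 91 clusters rose from P14 to P18 and 2 fell at an adjusted p under 0.05, with a median log2 change of 2.51, or 5.71-fold. Of all 18154 features tested 15.9% rose and 18.0% fell, with a median change of -0.14. The 114 genic clusters had a median of -0.28, with 21 higher and 28 lower. With the 18 libraries scaled together by TMM factors, the mean level was highest at P28 in 64 clusters, at P18 in 26 and at P14 in 1. By library totals alone the median log2 change from P18 to P28 was -0.33, so the split between P18 and P28 depends on scaling. Each age has its own deposited table, so age and table cannot be told apart. Values are per cluster and not per length, so levels are compared within a cluster and not between clusters.

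The steepest wild-type rises came from clusters that were nearly silent at P14. 8-qA4-155 had 0.185, 0.315 and 0.188 CPM in the P14 wild-type libraries and 14.2, 13.2 and 19.3 CPM at P18, a log2 change of 6.01 ± 0.39 (SE). Its band neighbour 8-qA4-332 went from 0.370, 0.630 and 0.489 CPM to 20.7, 23.6 and 16.05 CPM, a log2 change of 5.28 ± 0.46 (SE). In both clusters of this band every P18 library lay far above every P14 library. The log2 rise was 5.60 for 13-qA3.1-355 and 5.15 for 11-qB1.3-590, which reached 93.5, 102 and 83.8 CPM at P18. 8-qA4-155 and 13-qA3.1-355 were too low to be tested within P14 and entered this fit through later groups, so no p is given for them. Not all P14 libraries of 8-qA4-332 met the low-count filter's level in this fit, so its p is left out too. The 2 clusters that fell, singled out after their values were seen, were already present at P14. 7-qD2-40 had 245, 235 and 249 CPM at P14, 148, 157 and 179 CPM at P18 and 39.6, 39.7 and 63.1 CPM at P28, a fall at each step. 2-qE5-4 had 74.1, 74.5 and 72.7 CPM at P14 and 36.8, 36.6 and 68.9 CPM at P18, then rose to 188, 178 and 113 CPM at P28. From P18 to P28 29 clusters rose and 9 fell (background 39.9% and 31.6%), with a median log2 change of 0.36. That step depends on scaling: by library totals alone 12 rose and 23 fell (background 26.5% and 50.2%), with a median of -0.33. The median of all features then moved from 0.12 to -0.54.

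**Figure D1:**
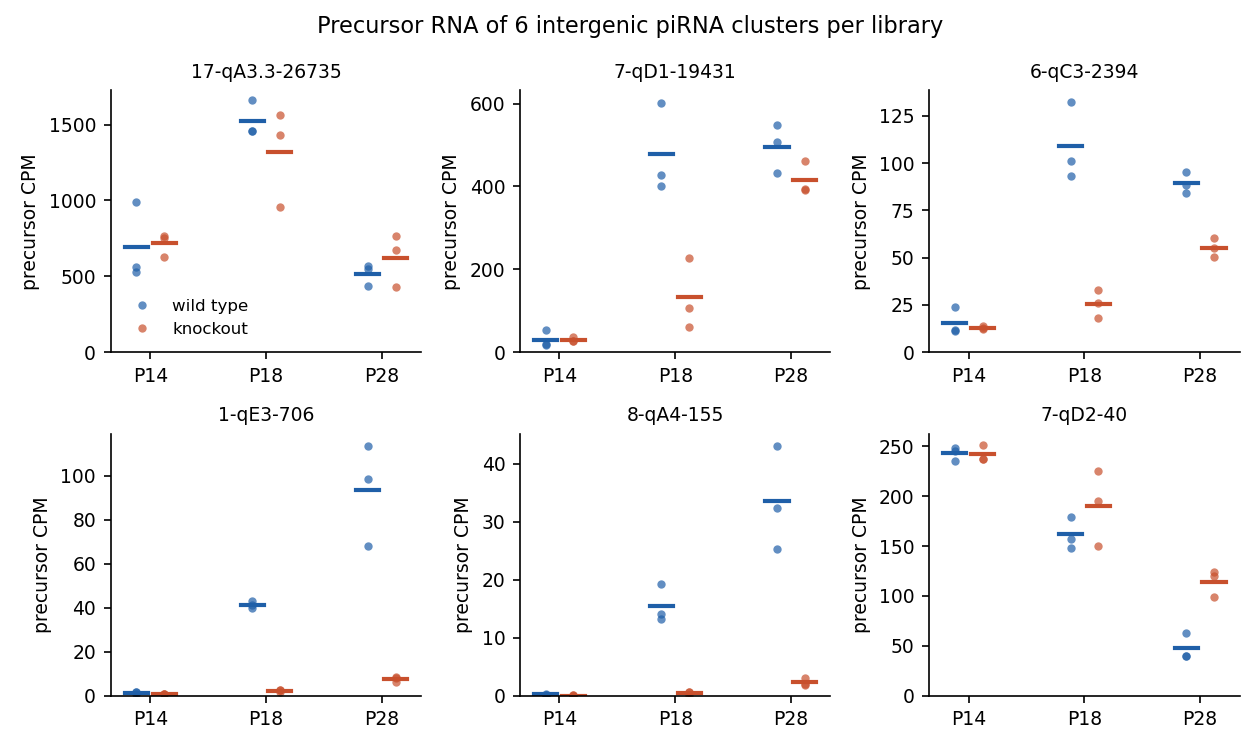
Precursor RNA of 6 intergenic clusters in every library, in CPM scaled within each age (vertical axis from 0) at P14, P18 and P28 (horizontal axis), with points for libraries and bars for means of 3. The P18 knockout libraries of 7-qD1-19431, 6-qC3-2394, 1-qE3-706 and 8-qA4-155 lie below all P18 wild-type libraries, while 17-qA3.3-26735 overlaps and 7-qD2-40 is higher in knockout at P28.

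At P14 no difference between the genotypes was detected in the intergenic precursors. Summed levels were 3754, 6498 and 3668 CPM in wild type and 4577, 5004 and 4728 CPM in knockout, and the knockout values fell inside the wild-type range. Too low to be tested were 8-qA4-155, 13-qA3.1-355 and 2-qE1-new-Gm13817. By edgeR 0 of 88 clusters tested passed the threshold, 5 had an unadjusted p under 0.05, and DESeq2 called 1 cluster. Over all 15922 features 0.0% were called. The genotypes did not overlap in 2 clusters lower in knockout (background 4.82%) and 1 higher (background 6.44%). The median log2 fold change was -0.10. Without wild-type library 2 it was 0.29 and 3 clusters were called higher (background 0.0558%), so the direction of the median at P14 rests on that library. The pachytene spermatocyte markers Hspa2, Ldhc, Ccna1, Pou5f2, Spata16, Tbpl1, Clgn, Pgk2, Adam3 and Aurkc summed to 494, 691 and 448 CPM in the P14 wild-type libraries, also highest in library 2. Their part in the result was not tested.

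At P18 the intergenic precursors were lower in knockout almost throughout. Of 90 clusters tested by edgeR 76 were lower and 0 higher, while 84 had an unadjusted p under 0.05 in either direction and DESeq2 called 77 lower. The median log2 fold change was -1.30, a 2.46-fold fall, with quartiles of -1.83 and -1.01. Over all 15722 features 15.0% were called lower, 3.19% higher, and the median was -7.43e-05. Summed levels were 18832, 17736 and 24966 CPM in wild type and 6540.3, 13268 and 9139.5 CPM in knockout, so the groups did not overlap. The 2 genotypes did not overlap, with knockout the lower, in 82 clusters, against 22.4% of all features. The genic clusters had a median of 0.04, with 13 of 114 lower and 2 higher, and the 10 intergenic clusters set aside had a median of -1.33 with 6 lower. The cluster 2-qE1-new-Gm13817 was too low to be tested at this age. Without knockout library 12 the edgeR test called 48 clusters lower (background 10.4%), with a median of -1.32. Pachytene spermatocyte markers moved in the same libraries: all 10 were lower, with sums of 2658, 3121 and 2401 CPM in wild type and 871, 1078 and 1031 CPM in knockout. Their part in the result was not tested, and in bulk testis fewer cells of a type and less RNA per cell cannot be told apart.

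**Figure D2:**
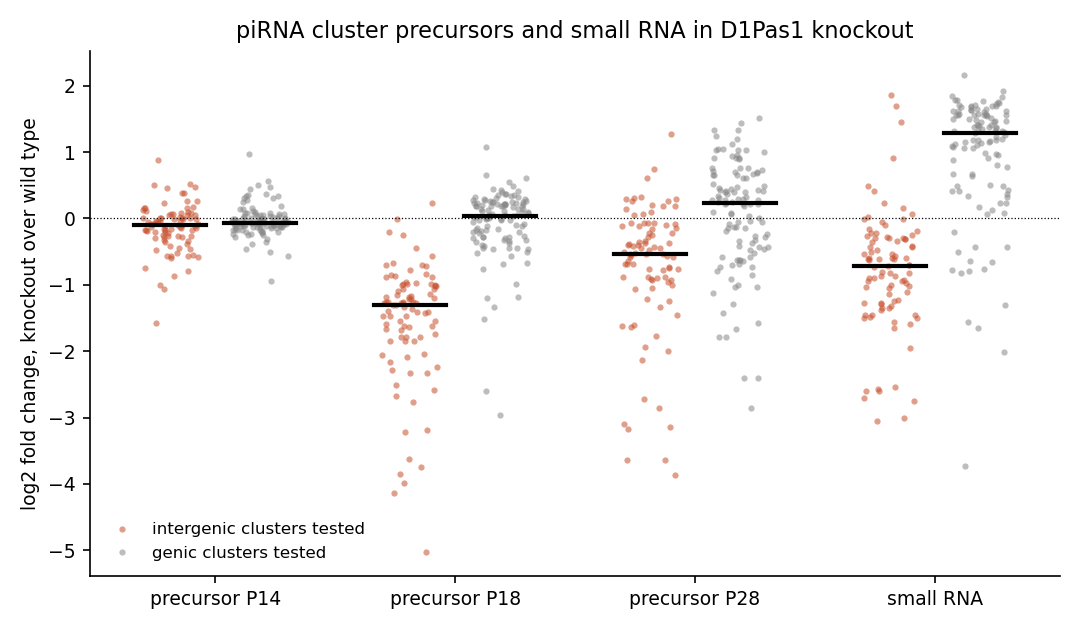
Log2 fold change of knockout over wild type (vertical axis) for each intergenic cluster and each genic cluster tested, in precursor RNA at P14, P18 and P28 and in small RNA (horizontal axis); points are clusters and black bars medians. The median of intergenic clusters is -0.10 at P14, -1.30 at P18, -0.53 at P28 and -0.72 in small RNA, and that of genic clusters is 1.29 in small RNA.

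The largest P18 falls were in clusters with low P14 levels. 8-qA4-155 had 14.2, 13.2 and 19.3 CPM in wild type and 0.172, 0.665 and 0.555 CPM in knockout, a log2 fold change of -5.02 ± 0.36 (SE). Not all of its knockout libraries met the low-count filter's level, so it was tested through its wild-type libraries and no p is given. 1-qE3-706 had 39.7, 43.2 and 41.3 CPM against 1.84, 2.405 and 2.77 CPM, a log2 fold change of -4.14 ± 0.17 (SE, adjusted p = 7.74e-06). In both, the highest knockout library lay far below the lowest wild-type library. 13-qA3.1-355 had 24.7, 30.5 and 28.3 CPM against 0.976, 2.61 and 1.61 CPM (-3.99 on the log2 scale, adjusted p = 4.30e-05 by edgeR). 11-qB1.3-590 had 93.5, 102 and 83.8 CPM against 4.25, 8.85 and 6.102 CPM (-3.85, adjusted p = 2.28e-05 by edgeR). In 17 of the 25 bands with more than 1 cluster tested, every cluster of the band was called lower. Since 84.4% of the 90 tested clusters were called lower, many such bands follow from that share alone. 8-qA4-332 changed by -3.63, and 4-qD2.2-2182 and its neighbour 4-qD2.2-349 by -3.22 and -2.04. The pair on band 17-qC differed in size, with -3.19 for 17-qC-59 and -1.47 for 17-qC-935, as did 13-qA3.1-213 with -1.64 beside 13-qA3.1-355. In other bands only some clusters were called lower: band 15-qE1 ran from -1.55 to -0.25, all below 0, and band 7-qD2 from -1.54 to 0.23. Clusters of 1 band can share a promoter or overlap, and the use of strand in counting was not stated, so reads of such neighbours may not be independent.

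The clusters that did not pass at P18 included some of the most abundant of the 91. 17-qA3.3-26735 had 1459.7, 1458 and 1663 CPM in wild type and 958, 1566 and 1433 CPM in knockout, groups that overlap, with a log2 fold change of -0.21 ± 0.18 (SE, adjusted p = 0.475). Its neighbour 17-qA3.3-352 changed by -1.84 (adjusted p = 7.45e-04 by edgeR). 14-qA3-19970 had 683, 640.1 and 950.4 CPM against 332, 618 and 454 CPM, lower in every knockout library but short of the threshold at -0.70 ± 0.24 (SE, adjusted p = 0.0785). 12-qE-23911 had a log2 fold change of -1.42 ± 0.43 (SE, adjusted p = 0.0531) and 5-qG3-23659 one of -0.83 ± 0.32 (SE, adjusted p = 0.117). Knockout library 11 was the highest of the knockout libraries in each of these 4 clusters, as it was in the summed level of the 91. Without it 83 clusters were called lower (background 11.7%), with a median of -1.66. 7-qD2-40 was the only tested cluster with a value above 0, at 0.23 ± 0.15 (SE, adjusted p = 0.344).

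At P28 the precursor levels of the genotypes lay closer together. Of 90 clusters tested, all but 1-qE2.3-2, 41 were lower and 1 was higher by edgeR, with a median log2 fold change of -0.53, or a 1.45-fold fall. Of all 17636 features 31.6% were called lower and 24.6% higher, and the libraries of the 2 genotypes did not overlap in 47 clusters lower in knockout (background 35.2%) and 7 higher (background 33.4%). Summed levels were 19226, 20063 and 18449.7 CPM in wild type and 16393, 16397 and 13962 CPM in knockout, every knockout library being lower. The result depends on scaling. With library totals alone in place of TMM factors 20 clusters were lower and 15 higher (background 24.1% and 41.3%). The median was then 0.00, and the median of all features moved from 0.05 to 0.59. At this age Sertoli markers (6 of 6) and Leydig markers (5 of 5) were higher in knockout, pachytene markers (10 of 10) and spermatid markers (8 of 8) lower, and their part in the result was not tested. Leydig markers summed to 2199, 2385 and 3719 CPM in wild type and 10843, 8644 and 7301 CPM in knockout.

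The clusters with the largest P18 falls were still low at P28, on either scaling. 8-qA4-155 had 43.03, 32.3 and 25.3 CPM in wild type and 1.96, 3.07 and 1.84 CPM in knockout, a log2 fold change of -3.86 ± 0.32 (SE, adjusted p = 4.10e-05). 1-qE3-706 had 113, 98.5 and 68.2 CPM against 8.33, 7.91 and 6.201 CPM, at -3.64 ± 0.25 (SE, adjusted p = 2.08e-05). 17-qC-59 had 193, 189.8 and 132 CPM against 13.1, 14.5 and 13.9 CPM, at -3.63 ± 0.21 (SE, adjusted p = 1.44e-05). These 3 clusters rose between P18 and P28 in wild type. 19-qC2-1361 had 29.4, 68.6 and 48.7 CPM against 6.26, 8.39 and 1.48 CPM, at -3.17 ± 0.60 (SE, adjusted p = 0.00291). Other clusters no longer passed. 15-qD3-14639 had 292, 283 and 293 CPM in wild type and 365, 368 and 347 CPM in knockout, every knockout library being higher without passing (0.32, adjusted p = 0.123 by edgeR), after -1.07 at P18. The 1 higher cluster was 7-qD2-40, with 39.6, 39.7 and 63.1 CPM against 124, 98.9 and 120.3 CPM and a log2 fold change of 1.27 ± 0.23 (SE, adjusted p = 0.00256). 2-qE5-4, chosen after its values were seen, had 188, 178 and 113 CPM in wild type and 54.7, 58.8 and 61.8 CPM in knockout, at -1.45 ± 0.22 (SE, adjusted p = 0.00108). Of the 76 clusters lower at P18, 39 were also lower at P28 and 37 did not pass there.

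The difference between ages was tested as an interaction of age and genotype in the fit over 18 libraries. Both interactions use the P18 libraries and so are not independent of each other. From P14 to P18 the genotype effect became more negative in 15 of 91 clusters and more positive in 0 (background 4.21% and 0.479% of 18154 features), with a median of -1.20. This count ranged from 8 to 53 when 1 library was left out. It was highest without P14 wild-type library 2 (background 4.89%). It was lowest without P14 wild-type library 1 (background 2.93%) or P14 knockout library 5 (background 3.27%). With DESeq2 it was 33 (background 5.36%). From P18 to P28 the effect became less negative or positive in 18 clusters and more negative in 2 (background 13.0% and 20.8%), with a median of 0.66. The count of 18 was 6 without P18 knockout library 10 and 7 without P18 knockout library 12 or P18 wild-type library 9. It was 28 without P14 wild-type library 2 and 33 without P18 knockout library 11. By library totals alone it was 57, where 37.8% of all features were called in that direction. In knockout testes 64 clusters rose and 0 fell from P14 to P18 (background 5.32% and 1.44%) with a median log2 change of 1.41, and 60 rose and 2 fell from P18 to P28 (background 30.0% and 27.7%) with a median of 0.97. These 2 knockout contrasts were added after the data had been seen. They were run with TMM scaling alone, so their dependence on scaling was not tested.

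Small RNA from most intergenic clusters was lower in knockout. The values are a normalized signal per cluster, tested with limma on log2(value + 1) over all 215 clusters. Of the 91 intergenic clusters 67 were lower, 4 were higher and 20 did not pass, with a median log2 fold change of -0.72, a 1.65-fold fall. Over all clusters 38.1% were lower and 30.7% higher. Summed signal was 269001, 282992 and 234039 in wild type and 225339, 195008 and 206384 in knockout, and the groups did not overlap. The 91 clusters held between 45.9% and 49.1% of the signal of all clusters in every library. The 10 intergenic clusters set aside held nearly as much, with 257796, 268556 and 224443 in wild type and 200721, 179465 and 186877 in knockout. Ranks by abundance are therefore ranks among the 91 only. Genic clusters had a median of 1.29 with 61 of 114 higher. That count was 93 without wild-type library 3, 1 without knockout library 1 and 0 without any 1 of the other 4 libraries, while the median stayed between 0.96 and 1.78. The share of all clusters called higher moved likewise, from 46.5% without wild-type library 3 to 0.465% in the lowest case. The 10 intergenic clusters set aside had a median of -0.46 with 6 lower and 1 higher. Libraries of the genotypes did not overlap in 70 clusters lower in knockout, against 42.3% of all clusters, and 5 higher, against 22.8%.

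**Figure D3:**
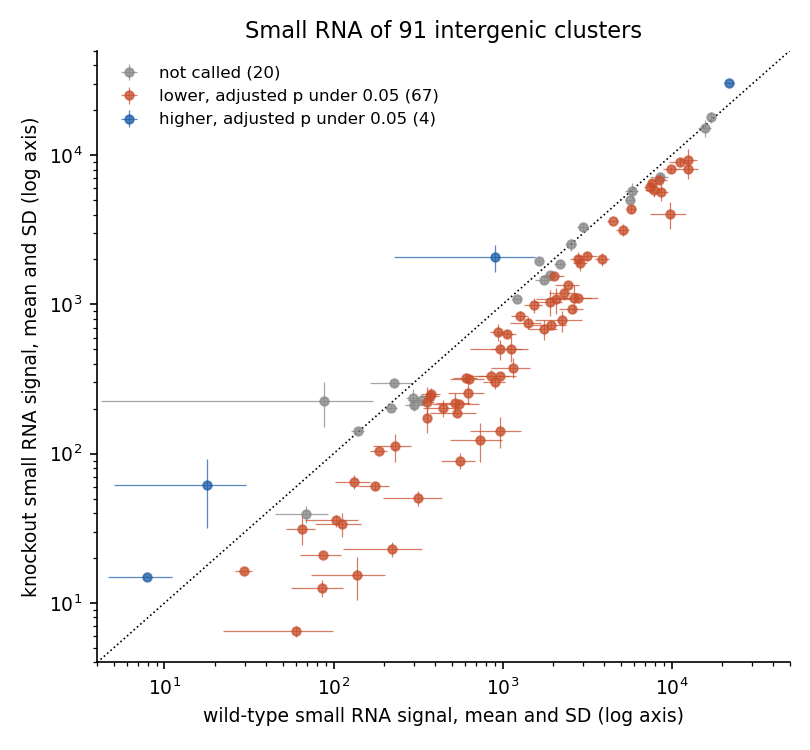
Small RNA signal of each intergenic cluster in wild type (horizontal, log axis) and knockout (vertical, log axis); points are means of 3 libraries, bars are SD, and the dotted line marks equal values. The 67 clusters called lower lie below the line, and 17-qA3.3-26735, the highest point, lies above it.

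The count of lower clusters depended on scaling and on single libraries. With each library scaled to an equal total 49 were lower and 10 higher (28.8% and 41.4% of all clusters). The median of all clusters then moved from 0.06 to 0.36. The count of lower clusters was 20 without wild-type library 1, 30 without wild-type library 2, 75 without wild-type library 3, 29 without knockout library 2 and 28 without knockout library 3. In these fits 12.6%, 17.2%, 45.1%, 17.2% and 16.3% of all clusters were called lower. The median log2 fold change lay between -0.84 and -0.66 in the fits that left out 1 library and was -0.43 with equal totals. When clusters were ranked by mean signal over both genotypes, the most abundant 30 had a median of -0.31, the middle 31 had -0.97 and the least abundant 30 had -0.91. That ranking includes the knockout values, so a fall itself lowers a cluster's rank, and these medians are descriptions only. The most abundant 30 held 82.4% of the wild-type signal of the 91 clusters. Among them 20 were lower, against 27 of the middle 31 and 20 of the least abundant 30. At P28 the same division had medians of -0.11, -0.68 and -0.88 in precursor RNA, and at P18 of -1.26, -1.33 and -1.63.

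Of the 91 clusters, the 6 with the highest wild-type small RNA signal held 34.7% of their summed wild-type signal. 17-qA3.3-26735, the highest, was higher in knockout, with 22107, 20259 and 23147 in wild type and 30639, 30062 and 30663 in knockout, a log2 fold change of 0.48 ± 0.07 (SE, adjusted p = 0.00322). 14-qA3-19970 had 16728, 17424 and 17294 against 19637, 16583 and 17525, overlapping groups, at 0.06 ± 0.08 (SE, adjusted p = 0.490). 5-qG3-23659 had 15990.1, 16839.7 and 14217 against 17217, 13457 and 14956, also overlapping, at -0.05 ± 0.11 (SE, adjusted p = 0.694). With equal totals both of these were called higher, at 0.35 and 0.25. The other 3 were lower. 7-qD1-19431 had 12674, 14107 and 10943 against 11131, 7959 and 8941 (-0.43, adjusted p = 0.0486 by limma), with wild-type library 3 below the highest knockout library. 12-qE-23911 had 12780.1, 14066 and 10563 against 9290.3, 7041 and 7831 (-0.63, adjusted p = 0.0149 by limma). 17-qE1.1-7037 had 11331, 12527 and 9592 against 9609.6, 8548 and 8839 (-0.30, adjusted p = 0.0491 by limma), with wild-type library 3 just below the highest knockout library. The calls of 7-qD1-19431 and 17-qE1.1-7037 were lost with equal totals, at -0.14 and -0.01.

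The largest small RNA falls were named among clusters whose mean signal was at least the median of all clusters. 4-qD2.2-2182 had a signal of 1017, 1252 and 622 in wild type and 177, 109.6 and 143 in knockout, a log2 fold change of -2.71 ± 0.33 (SE, adjusted p = 0.00284). 1-qE3-706 had 599.9, 661 and 417 against 101, 78.4 and 90.03, at -2.60 ± 0.28 (SE, adjusted p = 0.00217). 14-qA3-2286 had 783, 967 and 472 against 161, 89.01 and 122, at -2.55 ± 0.36 (SE, adjusted p = 0.00322). In all 3 the knockout libraries lay well below wild-type library 3, the lowest wild-type library. The log2 fold change was -1.58 for 6-qC3-2394, -1.57 for 9-qA5.3-1495 and -1.50 for 14-qC1-1010. Its band neighbour 14-qC1-1261 was at -1.38, so that pair fell alike in small RNA, whereas the band 14-qA3 spanned from -2.55 to the 0.06 of 14-qA3-19970.

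The rises were few. 7-qD2-40 had a small RNA signal of 628, 406 and 1659 in wild type and 1661, 2503 and 2076 in knockout, a log2 fold change of 1.45 ± 0.49 (SE, adjusted p = 0.0483). Wild-type library 3 was higher than the other wild-type libraries and lay just below the lowest knockout library. Its neighbour 7-qD2-11976 was at -0.71. The other 2 of the 4 higher clusters, named after their values were seen, had low signals: 1-qE2.3-2 with 15.1, 6.66 and 31.7 against 32.2, 92.4 and 60.6 and 2-qE1-new-Gm13817 with 6.03, 6.02 and 11.6 against 15.3, 14.9 and 14.7. The direction of 2-qE1-new-Gm13817 depends on the value column. In the second one it had 106, 106 and 102 in wild type against 52.2, 41.9 and 43.8 in knockout, and on the sum of both columns its log2 fold change was -0.88 (adjusted p = 0.0357 by limma), a call in the lower direction. The call of 7-qD2-40 was lost when any library other than wild-type library 3 was left out, with values from 1.01 to 1.60. The higher call of 1-qE2.3-2 was lost without wild-type library 1 or 2 or knockout library 2 or 3, with values from 1.33 to 1.86.

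Most clusters were lower both in precursor RNA at P18 and in small RNA, as the separate counts already imply. The 61 clusters lower in both are 80.3% of the 76 lower at P18, where 74.4% of all 90 clusters tested in both were lower in small RNA. They are 91.04% of the 67 lower in small RNA, where 84.4% of the 90 were lower at P18. The separate counts alone give 56.6 shared clusters, so the overlap says little of single clusters. Across the 90 clusters Pearson's r between the log2 fold changes was 0.66 and Spearman's rho 0.54. At P28 the values were 0.55 and 0.43. These are descriptions over clusters that share libraries and partly share bands, and the age of the small RNA samples is not stated. The median log2 fold change was -1.30 in precursor RNA at P18 and -0.72 in small RNA.

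**Figure D4:**
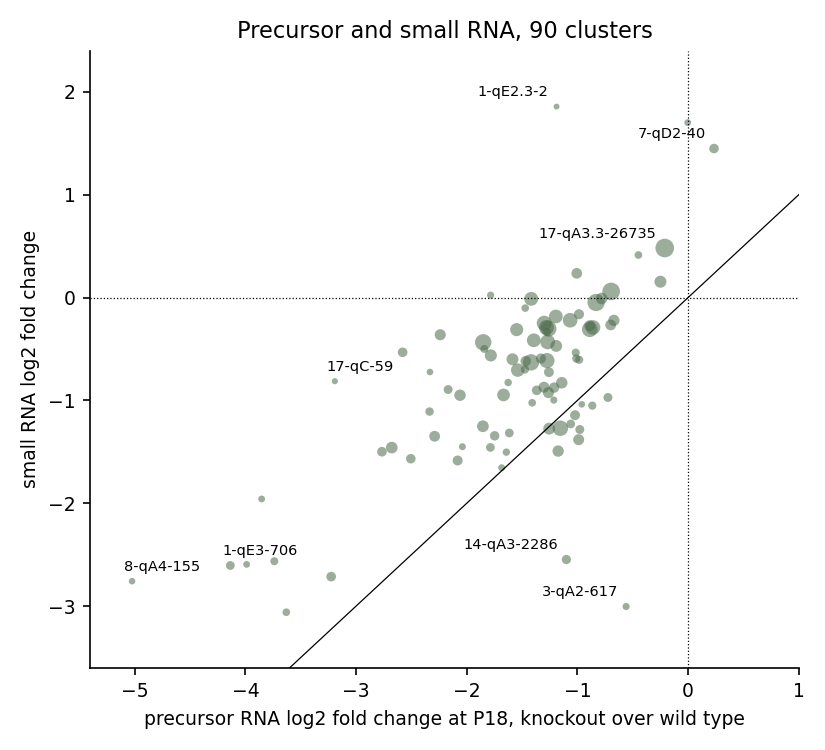
Log2 fold change of knockout over wild type in precursor RNA at P18 (horizontal) and in small RNA (vertical) for 90 intergenic clusters; point area grows with the wild-type small RNA signal, and the diagonal marks equal change. Most points lie above the diagonal, and 3-qA2-617 and 14-qA3-2286 lie well below it.

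The widest gaps ran both ways. 1-qE2.3-2 had -1.19 in precursor RNA at P18 (adjusted p = 0.225 by edgeR) and 1.86 in small RNA, and its precursor was listed at or near 0 in every P28 library. 17-qC-59 had -3.19 in precursor RNA against -0.81 in small RNA, with small RNA signals of 27.8, 33.5 and 27.3 in wild type and 16.9, 15.7 and 16.3 in knockout. 8-qA4-155 had -5.02 against -2.76, with small RNA signals of 93.02, 69.9 and 18.2 in wild type and 7.07, 6.13 and 6.21 in knockout. 18-qE1-1295 had -2.58 against -0.53. In each of these the small RNA fell less than the precursor or rose. The opposite held for 3-qA2-617, whose precursor was at 829.6, 518 and 1229.7 CPM in wild type and 442, 877 and 429.6 CPM in knockout, overlapping groups (-0.56, adjusted p = 0.324 by edgeR), while its small RNA was at 149.5, 195 and 68.6 against 20.6, 11.04 and 14.3 (-3.004 on the log2 scale, adjusted p = 0.00430 by limma). 14-qA3-2286 had -1.10 in precursor RNA against -2.55, 14-qC1-1261 had -0.99 against -1.38 and 11-qE1-3997 had -1.17 against -1.49. The gaps themselves were not tested, since the values come from different assays and samples.

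D1PAS1 eCLIP events were enriched over input in many of these clusters. The 91 clusters took 0.700% (95% Wilson interval 0.658 to 0.744%), 0.448% (0.414 to 0.484%) and 1.32% (1.25 to 1.39%) of the events in the 3 precipitates. In the inputs they took 0.229% (0.212 to 0.248%), 0.362% (0.355 to 0.369%) and 0.244% (0.239 to 0.250%), so every precipitate was above every input. The intervals cover counting error only. Every precipitate lay above every input in 42 of the 91 clusters on scaled values, against 8.03% of all 43688 features and 11.4% of the 29413 features with 10 or more events over the inputs, which 88 of the 91 clusters have. Without a filter on low counts edgeR called 31 clusters higher and 2 lower (background 2.29% and 4.17%). With the package's filter 32 clusters were tested, 21 higher and 1 lower (background 12.6% and 8.23%). Of those 32, 17 met the filter's level in all 3 precipitates but not in all inputs, so the count among tested clusters is a description only. Without precipitate 3, which had the highest share, 13 were called higher (background 7.59%).

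**Figure D5:**
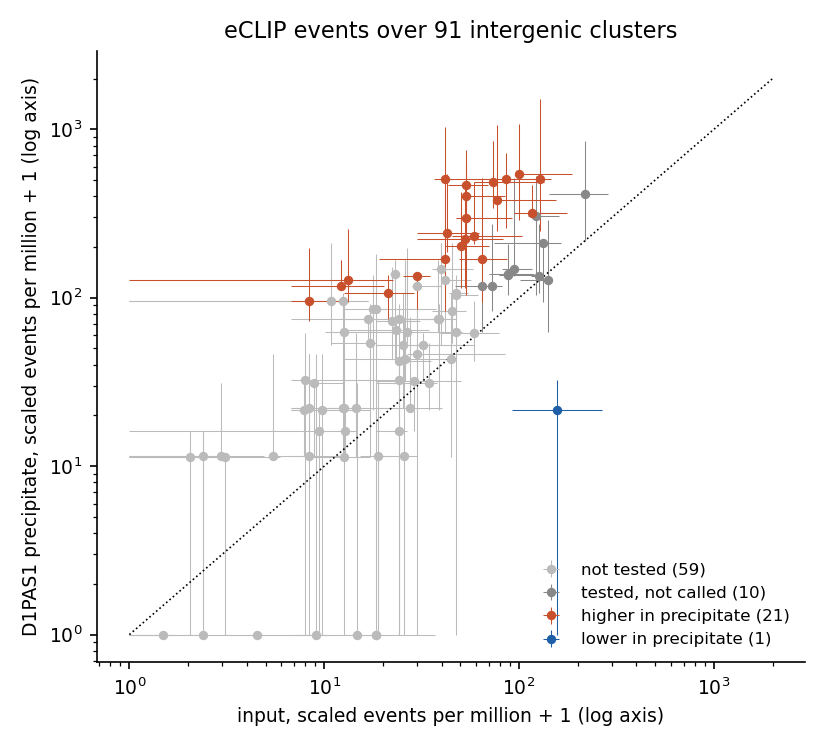
Scaled cross-link event counts (CPM) plus 1 over each of the 91 intergenic clusters in inputs (horizontal, log axis) and D1PAS1 precipitates (vertical, log axis); points are medians of 3 libraries, bars run from the lowest to the highest library, and the dotted line marks equal values. The 21 clusters called higher lie above the line, and 9-qA1-178 lies below it.

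The 5 largest enrichments were in clusters whose precipitates all met the filter's level while not all of their inputs did, so their values are given with no test. 1-qD-4525 had 9, 7 and 13 events in the precipitates and 1, 25 and 21 in the inputs, a log2 fold change of 3.58 ± 0.47 (SE), and of 3.15 without the filter. 15-qD3-14639 had 48, 24 and 68 events against 7, 152 and 102, or, as event counts scaled in the same way (CPM), 507, 247 and 1026 against 40.5, 74.8 and 35.7, at 3.45 ± 0.51 (SE) and 2.99 without the filter. 8-qC5-8200 had 127, 92.7 and 257 CPM against 0, 21.7 and 12.2, at 3.25 ± 0.54 (SE) and 2.81 without the filter. In these 3 every precipitate exceeded every input. 19-qC2-1361 was at 3.15 and 5-qF-14508 at 2.85, or 2.72 and 2.41 without the filter. The precipitate events behind these 5 values ranged from 29 in 1-qD-4525 to 140 in 15-qD3-14639, the third highest of the 91 clusters. The 2 abundant clusters named next were enriched too, with 538, 288 and 1071 CPM against 98.5, 186 and 97.2 for 17-qA3.3-26735 and 507, 247 and 1509 against 127, 131 and 116 for 5-qG3-23659. 17-qE1.1-7037, the sixth most abundant of the 91 in small RNA, did not pass, at 0.58 ± 0.41 (SE, adjusted p = 0.361). Without the filter 2 clusters were called lower. In 1-qE2.3-2, which was not tested with the filter, the precipitates held 0, 0 and 0 events and the inputs 3, 73 and 43. The other was 9-qA1-178, called with the filter too, with 3, 2 and 0 events in the precipitates and 46, 317 and 260 in the inputs. It was at -2.95 ± 0.78 (SE), and at -3.36 without the filter. All 3 of its inputs but 0 of its precipitates met the filter's level, so this value too is given with no test. The call made with the filter was lost without any 1 of the precipitates, with values between -2.58 (without precipitate 3) and -3.69 (without precipitate 1).

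Pooled over the clusters, exon number 1 of the deposited features held between 74.8% and 81.5% of the events in the precipitates and between 62.4% and 65.6% in the inputs. Introns held 4.60 to 9.49% in the precipitates and 16.7 to 21.3% in the inputs, so both shares separated the groups without overlap. 9-qA1-178 alone held 583 of the 3479 input events in introns, and clusters with windows in exon number 1 alone add nothing to introns. Over the 40 clusters with other windows too and without 9-qA1-178, introns held 15.8 to 27.03% in the precipitates and 33.5 to 38.3% in the inputs. These shares are still sums over clusters, and a shift of events between clusters was not separated from one within them. In 50 of the 91 clusters all windows listed with events lay in exon number 1, where they reached a median of 22539 nt. This division rests on the windows that held events, few in some clusters, and not on an annotation. These 50 clusters held 73.1% of the wild-type small RNA signal of the 91. Their median log2 fold change was -1.39 in precursor RNA at P18 and -0.59 in small RNA, against -1.27 and -0.88 in the other 41. When the reach of exon number 1 in the tested clusters was divided into 10 equal stretches, each stretch held between 5.32% and 14.5% of the events of a precipitate. In the inputs a stretch held between 4.48% and 16.9%. As a description over the 32 tested clusters, which share libraries, Pearson's r of the eCLIP log2 fold change was -0.24 with the precursor change at P18 and 0.08 with the small RNA change.

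The genes that make and process piRNAs were read from lists in the same edgeR fits. Mybl1, which encodes A-MYB, had 216 ± 13.2 CPM in wild type and 194 ± 17.97 in knockout at P18 (log2 fold change -0.16, adjusted p = 0.369 by edgeR) and -0.01 at P28. Tcfl5, a transcription factor of spermatocytes that acts with A-MYB, fell by 0.68 on the log2 scale at P18 (adjusted p = 0.00837 by edgeR) and by 1.06 at P28 (adjusted p = 0.0105 by edgeR). Btbd18, a nuclear protein needed for elongation at a subset of pachytene clusters, was at 0.43 at P18 (adjusted p = 0.0541 by edgeR) and rose by 1.00 at P28 (adjusted p = 0.00741 by edgeR). Of 17 precursor processing genes 8 were lower and 0 higher at P18, and 5 lower and 1 higher at P28, against the 15.0% and 31.6% of all features called lower at these ages. At P18 these included Henmt1, which methylates piRNA ends (-1.46), Pld6, a mitochondrial endonuclease (-1.41), and Gtsf1, a PIWI cofactor (-1.05).

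Of the PIWI genes, Piwil1 (MIWI) had 609 ± 81.8 CPM in wild type and 264 ± 67.4 in knockout at P18 and fell by 1.21 on the log2 scale (adjusted p = 0.00284 by edgeR). At P28 it was at 0.03 (adjusted p = 0.897 by edgeR). Piwil2 (MILI) did not pass at either age, at -0.21 and 0.20. Of 6 chromatoid body genes 3 were lower at P18 (background 15.0%) and 4 at P28 (background 31.6%). Tdrd6, a Tudor protein of this germ cell granule, changed by -2.94 at P18, and the helicase gene Ddx25 by -1.53. At P14 none of the 29 genes on these 4 lists passed. No early meiotic prophase marker of 8 was higher at P18 and 1 was lower, while 7 were higher at P28 (background 24.6%). The P28 values of these genes are relative to TMM scaling, under which the median of all features was 0.05, against 0.59 by library totals alone.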

How the data were processed

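Precursor RNA values are estimated counts per gene or cluster in 1 deposited table per age, unscaled and mostly not whole, and they were rounded here. Reads were trimmed with cutadapt 3.4 and the build is mm10, per the submitters' processing notes; the aligner, annotation and use of strand were not given in the sources used here. Small RNA values are a deposited signal per cluster transcript, which the authors normalized by a method that the labels do not define. The first of its value columns was used, for the transcript with the highest mean of each cluster, and 12 unlisted values of 467 transcripts were set to 0. eCLIP values are deposited cross-link counts per sliding window of 50 nt, with names per the file headers, and 1 window in 3 was summed per feature.

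Tests ran on whole tables: edgeR 4.0.16 quasi-likelihood with TMM scaling and its own low-count filter for RNA and eCLIP, and limma 3.58.1 with a trend on log2(value + 1) for small RNA, in R 4.3.3. All were two-sided with Benjamini-Hochberg adjustment and a threshold of 0.05; alternatives included DESeq2 1.42.0. The scripts were tested on simulated data, where DESeq2, an alternative only, exceeded the share of false calls allowed for the other tests. SE is that of the log2 fold change. Members, gene lists and tests were chosen with earlier results of these data known. Clusters were named by rank: the highest small RNA signals, the largest called changes per comparison, and the largest gaps between small RNA and precursor; clusters on the band of a named one are given beside it, and others are said to be chosen after their values were seen. Pathway genes were Mybl1 and those among the smallest p of each list. BisMapR samples were not analysed here. Library totals are given with the results.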

Additional observations from a re-analysis of the deposited data

Results flagged for a closer look

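In 7 named clusters the knockout effect on precursor RNA at P18 differed from that at P14 by the interaction test in edgeR. The difference in log2 fold change was -3.25 for 1-qE3-706 (adjusted p = 3.20e-04), -3.14 for 13-qA3.1-355 and -3.04 for 8-qA4-332. It was -2.65 for 11-qB1.3-590 (0.00572), -2.32 for 9-qA5.3-1495 (0.0349), -2.05 for 17-qC-59 (0.00948) and -1.68 for 6-qC3-2394 (0.0110). The calls of 13-qA3.1-355, 17-qC-59, 8-qA4-332 and 9-qA5.3-1495 were lost when some 1 library was left out. 13-qA3.1-355 was too low to be tested within P14 and entered the fit through later groups, so no p is given for it. Not all P14 libraries of 8-qA4-332 met the low-count filter's level in the fit, so its p is left out too.

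In 7 named clusters the effect at P28 differed from that at P18 by the same test. The difference was 1.53 for 18-qE1-1295 (adjusted p = 0.0347), 1.35 for 1-qD-4525 (0.0446), 1.33 for 17-qE1.1-7037 (0.0293) and 1.25 for 6-qC3-2394 (0.0140). It was 1.24 for 15-qD3-14639 (0.0254), 1.04 for 8-qC5-8200 (0.0277) and 0.89 for 7-qD2-40 (0.0138). The calls of 18-qE1-1295, 1-qD-4525, 17-qE1.1-7037, 15-qD3-14639 and 8-qC5-8200 were lost when some 1 library was left out. All but 7-qD2-40 were lower in knockout at P18.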

How the results depend on the processing

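With DESeq2 1 cluster was called higher at P14 (background 0.224%). By the same method 33 had a more negative genotype effect at P18 than at P14 (background 5.36%). With library totals alone 20 clusters were lower and 15 higher at P28 (background 24.1% and 41.3%). Under that scaling 12 rose from P18 to P28 in wild type (background 26.5%), and 57 became less negative or positive from P18 to P28 (background 37.8%). Leaving out 1 library gave 0 to 3 calls at P14, 48 to 83 at P18, 29 to 41 at P28, 85 to 88 wild-type rises to P18, 21 to 35 wild-type rises to P28, 8 to 53 and 6 to 33 calls in the interactions, 20 to 75 falls in small RNA and 13 to 30 eCLIP enrichments. In these fits 10.4 to 16.3% of all features were called lower at P18 and 27.3 to 32.1% at P28. In small RNA 12.6 to 45.1% of all clusters were called lower, and in eCLIP 6.8 to 14.6% of all features were called higher. Leaving out some 1 library ended the P18 calls of 14-qA3-2286, 15-qD3-14639, 17-qE1.1-7037, 5-qF-14508, 7-qD1-19431 and 8-qC5-8200. It also ended the small RNA calls of these last 5 and of 1-qE2.3-2, 12-qE-23911, 17-qC-59, 18-qE1-1295, 7-qD2-40, 8-qA4-155 and 9-qA1-178, and the eCLIP calls of 14-qA3-19970 and 9-qA1-178. Depth limits the eCLIP values: 47 of the 91 clusters had fewer than 10 events in every precipitate.

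The second small RNA value column, whose meaning the labels do not give and whose values are mostly near 0, called 2 clusters lower. Its log2 fold changes had the opposite sign for 17-qA3.3-26735 (-0.56), 14-qA3-19970 (-0.079), 12-qE-23911 (0.29), 14-qA3-2286 (0.19), 14-qC1-1010 (0.027), 8-qA4-155 (0.18), 13-qA3.1-355 (1.11), 11-qB1.3-590 (0.0046), 19-qC2-1361 (0.028), 8-qA4-332 (0.054), 15-qD3-14639 (0.17), 8-qC5-8200 (0.059), 5-qF-14508 (0.45), 9-qA1-178 (0.12), 18-qE1-1295 (0.49), 3-qA2-617 (0.10) and 14-qC1-1261 (0.37). The sign also changed for 2-qE1-new-Gm13817, chosen after its values were seen, in this column (-1.18) and on the sum of both columns (-0.88). With equal totals the sign changed for 5-qG3-23659 (0.25), 15-qD3-14639 (0.073) and 5-qF-14508 (0.0034). Without 1 small RNA library 14-qA3-19970 ranged between -0.0082 and 0.11, and 5-qG3-23659 from -0.14 to 0.037. The cause was not tested. Among named clusters, 1924 values under the alternatives kept their direction and side of the threshold, 157 lost their call, 1 gained one and 23 changed sign.

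Over clusters, same-numbered small RNA libraries deviated together for numbers 1 and 3 (r = 0.65 and 0.40) and oppositely for number 2 (-0.89), and eCLIP libraries had r of 0.05, -0.18 and -0.0014. Not every pair agreed, so the numbers were not taken to pair the samples. With a replicate block 50 clusters were lower and 5 higher in small RNA (29.3% and 29.8% of all clusters). In eCLIP 22 were then enriched (background 11.5%). For RNA-seq, no paired analysis was possible because the knockout columns, and at P18 the wild-type columns too, carry numbers other than those of the sample titles.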
